A study of Mus musculus with 60 samples.

Results

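Pou5f1, Sox2, Klf4 and Myc are the 4 transcription factors of the OSKM cassette, which is used to push fibroblasts towards pluripotency. They were found by matching the gene identifiers of both deposited count tables to mouse symbols, and are 4 of 56980 genes in each table. Pou5f1 encodes the POU factor OCT4, Sox2 an HMG-box partner that binds DNA beside it, Klf4 a zinc-finger factor that is also active in epithelia and fibroblasts, and Myc a basic helix-loop-helix factor that drives growth and ribosome synthesis. Pou5f1 and Sox2 are core genes of the pluripotent state and are normally near silent in skin fibroblasts, whereas Klf4 and Myc are expressed there as part of the response to serum and growth signals. In embryonic stem cells the 4 factors bind many of the same enhancers, among them enhancers of Pou5f1 and Sox2 themselves.

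RNA was counted in 60 libraries of cultured mouse fibroblasts, in 20 groups of 3. The reprogramming table held tail tip fibroblasts of genotype 4FJ_ERCC1_(d/-), from a male of 8 weeks and called D/KO, and of genotype 4FJ_(+/-)_OCT4-GFP, from a female of 22 weeks and called WT. Both carried a doxycycline-inducible cassette and doxycycline (2 µg/ml) was given for 0, 2 or 4 days. Part of the groups also received VC, ascorbic acid (50 µg/ml) with the GSK3 inhibitor CHIR-99021 (3 µM). The inhibitor table held tail tip fibroblasts of genotype ERCC1_(d/-) from a female of 4 weeks (D/KO control), the same cells with Repsox or Vactosertib (0.1 µM each) or with A83-01 or DMH-1 (1 µM each) for 3 days, and ERCC1_(+/+)_WT fibroblasts of tail tip (WT control) and of skin (WT skin control) from a female of 14 weeks. It also held a group of 4FJ_(+/-)_OCT4-GFP tail tip fibroblasts from a female of 22 weeks labelled TGFB (WT 4F TGFB). ERCC1 is a nuclease subunit of DNA repair, and D/KO cells hold 1 truncated and 1 null allele. Genotype, age and line change together between D/KO and WT in both tables, and sex too in the reprogramming table, so these cannot be told apart. The 2 lines are described as separate strains. That of D/KO cells carries a polycistronic transgene at Col1a1 with the M2-rtTA transactivator at ROSA26, and that of WT cells a polycistronic cassette at Col1a1 with an Oct4-EGFP reporter, for which no transactivator is stated in the sources used here. Cassette and reporter therefore cannot be told apart from genotype either. Reads at the 4 genes can come from the transgene or from the endogenous gene, and these cannot be told apart in the counts. In bulk RNA, fewer cells that express a gene and less RNA per cell cannot be told apart either. Nothing states that libraries of a group came from separate cultures or animals, so p-values measure the spread between libraries, which may be technical.

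Each library of the reprogramming table summed to between 16538374 and 18484951 counts and each of the inhibitor table to between 17102639 and 30599138. Ercc1 was at 8.03 to 18.6 CPM (counts scaled to library size, with TMM factors) in D/KO and 16.8 to 29.1 CPM in WT libraries of the reprogramming table. In the inhibitor table it was at 20.3 to 20.9 CPM in D/KO control and 13.3 to 21.7 CPM in WT control. The truncated allele can still give RNA, so this level does not check the label. The 10 fibroblast markers were detected in every group, with a summed level of 26100 to 249000 CPM. Of the 4 factors, all passed the filter on low counts in both tables, where 15832 and 15652 genes were tested.

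On GRCm39, Pou5f1 (ENSMUSG00000024406) lies on the plus strand at chr17:35816915-35821669 and Sox2 (ENSMUSG00000074637), which has 1 coding exon, on the plus strand at chr3:34704554-34706610. Klf4 (ENSMUSG00000003032) lies on the minus strand at chr4:55527143-55532466 and Myc (ENSMUSG00000022346) on the plus strand at chr15:61857240-61862223. Coding sequence, the part that the cassette and the endogenous genes should share, makes up 46.5% to 50.1% of the exon length of each gene. The antisense lncRNA Gm19553 shares 403 exon bases with Pou5f1 and had 0 counts in all 12 reprogramming groups. Sox2ot, the lncRNA that spans Sox2 on the same strand, shares no exon base with it.

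Sox2, Klf4 and Myc also moved in fibroblasts that carry no cassette in their label, and for this reason the proximal promoters of Sox2 and Klf4 are shown. The promoter of Myc was not used here. The sequences are those of RefSeq (GRCm38.p6 table), each matched to 1 place in GRCm39 and read 5′ to 3′ on the gene's strand, with bases that fall in an annotated exon left out. The first spans chr3:34703894-34704143 on the plus strand, with the octamer ATGCAAA, a POU factor motif, in capitals 99 bases before the start. The second spans chr4:55532529-55532725 on the minus strand, with the E-box CACGTG, a motif bound by MYC and other basic helix-loop-helix factors, in capitals 182 bases before the start. Starts are those of RefSeq, which for both genes lie upstream of the gene starts given above.
Sox2: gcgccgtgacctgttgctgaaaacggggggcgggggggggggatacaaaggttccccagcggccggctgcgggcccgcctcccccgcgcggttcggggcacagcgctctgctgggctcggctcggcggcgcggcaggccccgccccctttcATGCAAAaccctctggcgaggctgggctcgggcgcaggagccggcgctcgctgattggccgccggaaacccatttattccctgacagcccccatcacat
Klf4: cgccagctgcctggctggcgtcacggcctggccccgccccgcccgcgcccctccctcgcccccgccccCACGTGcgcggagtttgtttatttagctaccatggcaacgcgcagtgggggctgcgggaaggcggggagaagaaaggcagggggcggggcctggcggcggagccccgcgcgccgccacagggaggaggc

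Searched on both strands in windows of the same length, the octamer was present in 4.12% and the E-box in 6.02% of 32851 RefSeq promoters. The Sox2 window also held 1 match to the SOX motif ACAAAG, found (with ACAATG) in 25.2% of promoters. Both windows are GC-rich, at 72.0% in Sox2 and 76.1% in Klf4, and hold GC boxes (GGGCGG), which 32.7% of promoters have. Neither window held the SMAD motif CAGAC, present in 42.2% of promoters, or the TCF motif ATCAAAG, present in 3.21%. These matches describe letters in the windows and no binding was measured.

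Doxycycline brought the 4 factors up in 30 of the 32 comparisons with day 0 of the same arm, and both exceptions were Klf4 in WT cells without VC. A gene was called where the Benjamini-Hochberg adjusted p of edgeR's two-sided quasi-likelihood test was under 0.05. All 4 were called higher in D/KO cells at day 2 (against 14.3% of all genes tested), at day 2 + VC (23.8%), at day 4 (18.3%) and at day 4 + VC (27.9%), and in WT cells at day 2 + VC (13.8%) and day 4 + VC (22.7%). In WT cells without VC, 3 of 4 were called higher at day 2 (6.26% of genes) and at day 4 (11.7%). Fold changes were largest for Pou5f1 and Sox2, smaller for Myc and smallest for Klf4. DESeq2 and the unadjusted p gave the same total of 30 calls. The 10 fibroblast markers moved with induction, with a summed level of 75700 to 117000 CPM at D/KO day 0 and 31400 to 34700 CPM at day 4, of 183000 to 249000 and 26100 to 27000 CPM with VC, of 51100 to 52600 and 43400 to 45000 CPM in WT cells and of 156000 to 169000 and 55800 to 65800 CPM in WT cells with VC. Their part in the induction was not tested.

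Pou5f1 stood at 1.1, 0.938 and 0.471 CPM in the 3 D/KO libraries at day 0, at 62.1, 68.2 and 76 CPM at day 2 and at 70.9, 42.8 and 78.4 CPM at day 4. In WT cells it was at 2.1, 1.29 and 2.5 CPM at day 0, at 41.5, 12.5 and 48.8 CPM at day 2 and at 59.8, 55.9 and 65.8 CPM at day 4. No induced library overlapped a day 0 library in either line, but replicate 2 of WT day 2 lay well under its group. The log2 fold change was 6.36 ± 0.386 (SE, adjusted p = 1.47e-15) in D/KO and 4.11 ± 0.335 (adjusted p = 1.93e-11) in WT cells at day 2, and 6.26 ± 0.386 and 4.94 ± 0.335 at day 4. With VC it lay between 4.57 and 5.55 in both lines and at both days.

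Sox2 was at 3.48, 3.34 and 2.71 CPM in D/KO cells at day 0, at 94.8, 97.5 and 110 CPM at day 2 and at 93.2, 66.1 and 123 CPM at day 4. The WT libraries held 2.59, 2.68 and 1.58 CPM at day 0, 57.8, 25.3 and 59.7 CPM at day 2 and 86.8, 75.2 and 89.3 CPM at day 4. The low library was again replicate 2 of WT day 2, and in D/KO day 4 the lowest library for both genes was replicate 2. The log2 fold change of Sox2 lay between 4.19 and 5.32 in the 8 comparisons, with an SE of 0.271 to 0.283, and all were called.

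Myc, which fibroblasts express before induction, was at 62.6, 68.6 and 64.4 CPM in D/KO cells at day 0, at 259, 258 and 244 CPM at day 2 and at 222, 197 and 291 CPM at day 4. The WT libraries were at 34.6, 36.4 and 37.6 CPM at day 0, at 138, 130 and 138 CPM at day 2 and at 173, 178 and 162 CPM at day 4. Replicate 2 of WT day 2 did not stand apart for Myc. Its log2 fold change lay between 1.86 and 3.24 in the 8 comparisons, with an SE of 0.111 to 0.118, and all were called.

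Klf4, which fibroblasts also express before induction, had the smallest fold changes. It was at 97.8, 117 and 69 CPM in D/KO cells at day 0, at 232, 232 and 224 CPM at day 2 and at 208, 161 and 261 CPM at day 4. The WT libraries were already at 198, 191 and 189 CPM at day 0, and stood at 229, 175 and 178 CPM at day 2 and at 232, 221 and 234 CPM at day 4. The WT day 2 libraries overlapped day 0, while the WT day 4 libraries were all higher. The log2 fold change was 1.28 ± 0.183 (adjusted p = 9.09e-07) at day 2 and 1.15 ± 0.183 (adjusted p = 3.05e-06) at day 4 in D/KO cells. In WT cells it was 0.01 at day 2 (95% interval -0.36 to 0.37, adjusted p = 1) and 0.25 at day 4 (95% interval -0.11 to 0.61, adjusted p = 0.335). Klf4 therefore passed the test in 6 of 8 comparisons, and the intervals leave room for a change of either sign in WT cells without VC.

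**Figure D1:**
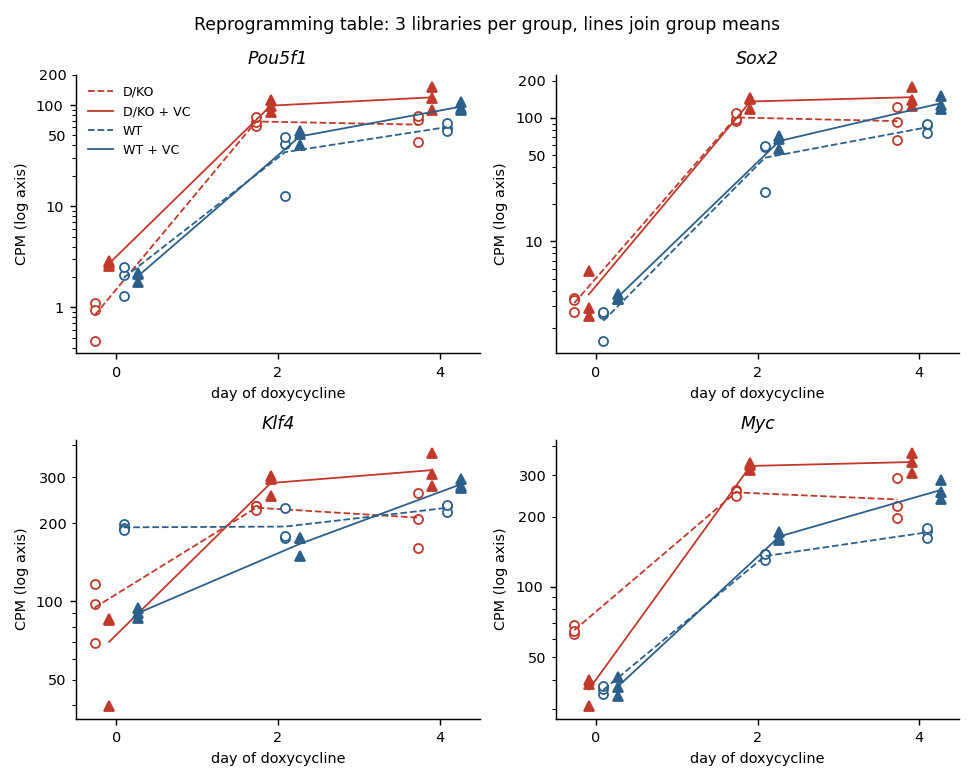
CPM (log axis) of each factor by day of doxycycline, with 1 point per library, open circles without VC and filled triangles with VC, D/KO in red and WT in blue, and lines through group means. Pou5f1 and Sox2 start between 0.471 and 5.8 CPM and reach up to 177 CPM, Myc starts between 30.9 and 68.6 CPM, and Klf4 in WT cells without VC stays between 175 and 234 CPM at all 3 days.

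Levels of different genes can be compared only per length, so the gain over the day 0 mean of the same arm was divided by coding length. In D/KO cells at day 2 the gain was 64.3 ± 6.57 CPM per kb (mean ± SD, n = 3) for Pou5f1, 102 ± 8.31 for Sox2, 93.0 ± 3.13 for Klf4 and 138 ± 5.98 for Myc. At D/KO day 4 + VC it was 110 ± 28.4 for Pou5f1, 150 ± 28.3 for Sox2, 173 ± 34.1 for Klf4 and 225 ± 25.3 for Myc. The gain of Myc per coding length was the highest of the 4 in 23 of 24 induced libraries, and in all 24 when exon length was used. The lowest gain belonged to Pou5f1 in 18 libraries and to Klf4 in 6, which are the 6 WT libraries at days 2 and 4 without VC.

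The gain of Sox2 relative to Pou5f1 in the same library was the steadiest ratio, with group means of 1.38 to 1.77 per coding length in the 8 induced groups. For Klf4 the mean ratio lay between 1.18 and 1.64 in 6 groups and was -0.274 ± 0.956 at WT day 2 (0.214 without replicate 2) and 0.45 ± 0.0632 at WT day 4 without VC. For Myc the highest mean was 3.52 ± 2.92 at WT day 2, where the libraries were at 2, 6.88 and 1.68. Without replicate 2, the library with the lowest Pou5f1, that mean was 1.84, and the lowest of the other groups was 1.8. In absolute terms Klf4 gained 36.4 ± 7.3 CPM at WT day 4 without VC and 193 ± 12.7 CPM at WT day 4 + VC, while Pou5f1 gained 58.5 ± 4.95 and 94.5 ± 10.2 CPM in the same groups. The day 0 mean that was subtracted for Klf4 was 193 CPM without VC and 90.2 CPM with VC. Together the 4 genes took 0.0127% to 0.018% of all counts at D/KO day 0 and 0.0896% to 0.118% at D/KO day 4 + VC, and 0.0249% to 0.0254% at WT day 0 and 0.08% to 0.0847% at WT day 4 + VC.

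**Figure D2:**
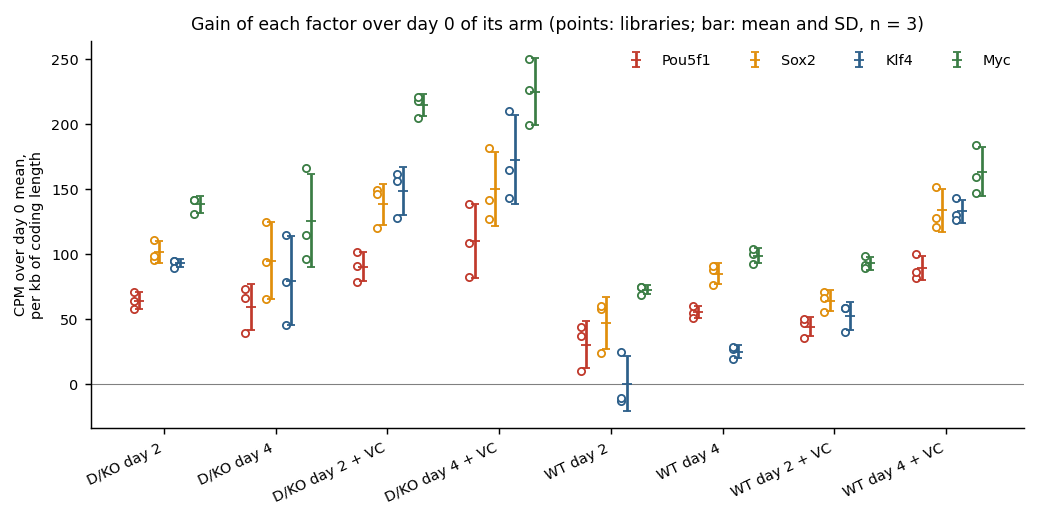
Gain of each factor over the mean of day 0 of its own arm, in CPM per kb of coding length, by induced group (points are libraries, bars mean and SD, n = 3). Myc gains most and Pou5f1 least in most groups, and Klf4 in WT cells without VC lies near 0 at day 2 (0.626 ± 20.9) and at 25.1 ± 5.04 at day 4.

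Across the 36 reprogramming libraries, log2 CPM of Pou5f1 and Sox2 had a Pearson r of 0.98, and no other tested gene had a higher r with either. Pou5f1 and Myc gave 0.93, Sox2 and Myc 0.96, and Klf4 gave 0.80 to 0.81 with each of the others. In deviations from the group mean over the 24 induced libraries, r was 0.96 for Pou5f1 with Sox2, 0.74 for Sox2 with Klf4, 0.65 for Klf4 with Myc, 0.62 for Pou5f1 with Klf4, 0.48 for Sox2 with Myc and 0.34 for Pou5f1 with Myc. In the 12 libraries of day 0, r was 0.01 for Pou5f1 with Sox2 and -0.80 for Pou5f1 with Myc (Spearman's rho -0.08 and -0.41), where Pou5f1 rests on 8 to 49 counts a library. The libraries share lines and scaling, so these are descriptions.

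The genes most like each factor over the 36 libraries, by r of log2 CPM among 15828 other genes, were Pdzd2 (0.971), Aspa, Usp1, Klf3 and Afap1l2 for Pou5f1. For Sox2 they were Pcyt1b (0.961), Klrg2, Tpcn1, Krtdap and Zfp423, and for Myc Klrg2 (0.969), 1700020L24Rik, Tspan15, Pcyt1b and Mmp28. For Klf4 they were Nhsl1 (0.905), Klf3, Cep68, Vstm5 and Strbp. Klf3, a KLF family repressor, was on the lists of both Pou5f1 and Klf4. Only some of each 5 stayed among the 5 nearest over group means (2 for Pou5f1, 4 for Sox2, 1 for Klf4 and 3 for Myc), and fewer or as many by Spearman's rho for 3 of the 4 (2, 1, 2 and 0).

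Days 2 and 4 were compared within each line. In D/KO cells none of the 4 factors was called between days 2 and 4 (9.58% of genes without VC and 15.6% with VC were), with log2 differences of -0.13 to 0.27, and 0 of 4 were called by DESeq2 or had an unadjusted edgeR p under 0.05. In WT cells without VC 3 of 4 were called higher at day 4 than at day 2 (9.25% of genes), namely Pou5f1 by 0.82 ± 0.253 (adjusted p = 0.0192), Sox2 by 0.82 ± 0.213 (adjusted p = 0.0066) and Myc by 0.34 ± 0.107 (adjusted p = 0.0226). Without replicate 2 of WT day 2 these were 0.43 (adjusted p = 0.173), 0.52 (adjusted p = 0.0937) and 0.31 (adjusted p = 0.104), so none of the 3 was called. The Pou5f1 call was also lost without replicate 3 of WT day 4 (0.76, adjusted p = 0.0648) and the Myc call without replicate 1 (0.33, adjusted p = 0.0604) or 2 (0.31, adjusted p = 0.08) of WT day 4. With VC all 4 were called higher in WT cells (9.94% of genes), by 0.98 ± 0.251 for Pou5f1, 1.01 ± 0.212 for Sox2, 0.76 ± 0.18 for Klf4 and 0.66 ± 0.107 for Myc, and the libraries of the 2 days did not overlap.

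VC was tested at each day against the same line without it. At day 0, before doxycycline, its effects ran in both directions. At day 4 it went with more of each factor in D/KO cells and of 3 factors in WT cells.

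At day 0, Pou5f1 in D/KO cells was at 2.72, 2.56 and 2.88 CPM with VC, above all 3 libraries without it, a log2 difference of 1.71 ± 0.514 (adjusted p = 0.012), or 1.42 (adjusted p = 0.0716) without replicate 3 of D/KO day 0. In WT cells it was at 2.21, 2.15 and 1.79 CPM with VC, within the range without it. Myc was at 38.2, 30.9 and 39.8 CPM in D/KO cells with VC, under all 3 libraries without it, a difference of -0.84 ± 0.112 (adjusted p = 2.53e-07). In WT cells Myc was at 37.1, 41 and 34.1 CPM with VC, and the difference was 0.05 (95% interval -0.18 to 0.28).

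Klf4 was lower with VC in WT cells before doxycycline, at 94.4, 90.1 and 86.1 CPM. The groups did not overlap and the log2 difference was -1.10 ± 0.183 (adjusted p = 1.48e-05). In D/KO cells Klf4 was at 85.3, 84.6 and 39.6 CPM with VC, a difference of -0.44 ± 0.184 (adjusted p = 0.0784) whose groups overlapped. With 1 library left out it ranged from -0.62 to -0.15 and was called in 3 of 6 fits. Sox2 at day 0 was at 2.52, 5.8 and 2.88 CPM with VC in D/KO and at 3.79, 3.44 and 3.45 CPM in WT cells, with differences of 0.21 (adjusted p = 0.699) and 0.64 (adjusted p = 0.16). Thus 2 of 4 factors were called in D/KO and 1 of 4 in WT cells at day 0, where 26.2% and 29.4% of all genes were. Marker sums moved with VC at day 0. The 10 fibroblast markers summed to 75700 to 117000 CPM without and 183000 to 249000 CPM with VC in D/KO cells, and to 51100 to 52600 and 156000 to 169000 CPM in WT cells, with none at 0. The 10 keratinocyte markers summed to 81.2 to 89.8 and 26.8 to 31.7 CPM in D/KO cells (2 and 6 at 0) and to 21.3 to 24.6 and 12.6 to 14.9 CPM in WT cells (4 and 5 at 0). The 6 endothelial markers summed to 587 to 710 and 232 to 273 CPM in D/KO cells and to 14.8 to 17.7 and 5.97 to 7.77 CPM in WT cells. Their part in the VC differences was not tested.

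At day 2, with VC, Myc was at 334, 316 and 338 CPM in D/KO cells, all above those without VC, by 0.38 ± 0.106 (adjusted p = 0.00739). It was the single factor called in D/KO cells (11.1% of genes were higher) and none was called in WT cells (26.6% in either direction), where 3 had an unadjusted p under 0.05 and DESeq2 called 1, Myc. The other 3 in D/KO cells had differences of 0.32 to 0.52 that were not called (adjusted p = 0.127 to 0.21). Pou5f1 there stood at 111, 86.2 and 98.5 CPM with VC. In WT cells Pou5f1 was at 40, 51.9 and 54.9 CPM, Sox2 at 56.4, 71.5 and 67.2 CPM, Klf4 at 149, 175 and 175 CPM and Myc at 162, 172 and 159 CPM with VC. Pou5f1 and Sox2 there differed by 0.52 and 0.45, with ranges of 0.12 to 0.86 and 0.15 to 0.65 when 1 library was left out. The Myc libraries were all above those without VC, with a difference of 0.28 ± 0.107 (adjusted p = 0.05).

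At day 4, D/KO cells with VC held 150, 118 and 89.6 CPM of Pou5f1, 177, 139 and 125 CPM of Sox2, 374, 309 and 277 CPM of Klf4 and 376, 307 and 344 CPM of Myc. All 4 were called higher than without VC (16.8% of genes were), by 0.90 ± 0.248 (adjusted p = 0.00458), 0.65 ± 0.209 (adjusted p = 0.0147), 0.61 ± 0.18 (adjusted p = 0.00779) and 0.53 ± 0.106 (adjusted p = 0.000131). No library with VC fell within the range without it. Without replicate 2 of D/KO day 4 the differences were 0.45 for both Sox2 (adjusted p = 0.12) and Klf4 (adjusted p = 0.0721), and without replicate 1 of D/KO day 4 + VC they were 0.49 (adjusted p = 0.0975) and 0.48 (adjusted p = 0.0577).

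WT cells at day 4 with VC held 108, 88.3 and 93.3 CPM of Pou5f1, 149, 126 and 119 CPM of Sox2, 297, 278 and 273 CPM of Klf4 and 238, 288 and 254 CPM of Myc. Of the 4, 3 were called, all higher than without VC (22.4% of genes were called in either direction), by 0.67 ± 0.248 for Pou5f1 (adjusted p = 0.0469), 0.65 ± 0.21 for Sox2 (adjusted p = 0.0216) and 0.61 ± 0.107 for Myc (adjusted p = 4.03e-05). Klf4 differed by 0.30 ± 0.179 (adjusted p = 0.253), with all 3 libraries higher. The Pou5f1 call was lost with any 1 of the 6 libraries left out, with differences of 0.58 to 0.73 and adjusted p-values of 0.0623 to 0.147. DESeq2 gave 0.66 for Pou5f1 and 0.63 for Sox2 and called neither, and the Sox2 call was lost without replicate 2 of WT day 4 (0.58, adjusted p = 0.0967) or replicate 1 of WT day 4 + VC (0.55, adjusted p = 0.099).

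Markers also moved with VC at day 4. In D/KO cells the keratinocyte markers summed to 192 to 204 CPM without VC (none at 0) and 661 to 764 CPM with it (1 at 0), and in WT cells to 22.4 to 29.2 and 72.8 to 85 CPM (3 at 0 in each). The fibroblast markers, none at 0, were lower with VC in D/KO cells and higher in WT cells, at the sums given above. Their part in the VC differences was not tested.

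**Figure D3:**
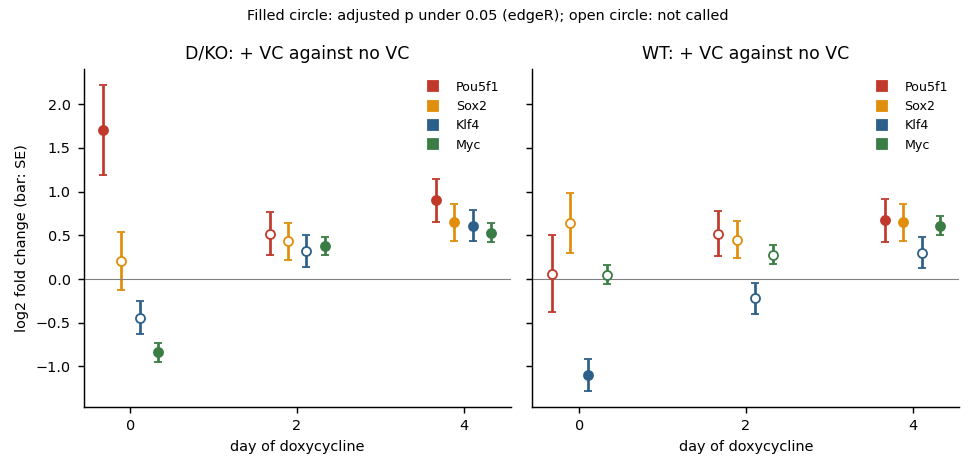
Log2 fold change of groups with VC against groups without VC at each day of doxycycline, for D/KO (left) and WT cells (right), with bars of 1 SE, filled circles where the adjusted p is under 0.05. At day 0 Pou5f1 in D/KO cells is at 1.71, Myc in D/KO cells at -0.84 and Klf4 in WT cells at -1.10, and by day 4 all 8 values lie between 0.30 and 0.90.

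Each arm was measured from its own day 0, and the difference between the change with VC and the change without it was tested directly. For Klf4 it was 0.75 ± 0.257 at day 2 and 1.04 ± 0.257 at day 4 in D/KO cells (adjusted p = 0.0441 and 0.00211) and 0.88 ± 0.256 and 1.40 ± 0.256 in WT cells (adjusted p = 0.0348 and 0.000162). For Myc it was 1.22 ± 0.154 and 1.38 ± 0.154 in D/KO cells (adjusted p = 5.6e-07 and 1.09e-08), 0.23 ± 0.155 at WT day 2 (adjusted p = 0.465) and 0.56 ± 0.155 at WT day 4 (adjusted p = 0.0108). For Pou5f1 and Sox2 it was called in none of the 4 comparisons by edgeR or DESeq2, and at an unadjusted p under 0.05 in 1 for Pou5f1 and 0 for Sox2. Of all genes, 6.83%, 13.5%, 2.54% and 7.16% were called with a positive difference in D/KO at day 2, D/KO at day 4, WT at day 2 and WT at day 4. The call for Klf4 at day 2 was lost without 8 of 12 libraries in turn in D/KO cells (0.47 to 0.94) and without 10 of 12 in WT cells (0.81 to 1.01). With only the compared groups in the fit, the D/KO calls for Klf4 were lost at day 2 (0.73) and at day 4 (1.00). Measured from day 0 without VC instead, Klf4 at WT day 2 + VC was -0.21 (adjusted p = 0.378). For Myc in D/KO cells, groups with VC differed from those without by -0.84 at day 0, 0.38 at day 2 and 0.53 at day 4.

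D/KO and WT cells were compared at each day. Before doxycycline Myc was higher in D/KO cells, by 0.85 ± 0.111 (adjusted p = 1.08e-07), and Klf4 lower, by -1.03 ± 0.183 (adjusted p = 2.18e-05), with no overlap between libraries. Pou5f1 differed by -1.24 ± 0.523 (adjusted p = 0.0532) and Sox2 by 0.48 ± 0.345 (adjusted p = 0.273). So 2 of 4 factors were called, where 43.2% of all genes were. At day 0 + VC none of the 4 was called by edgeR or DESeq2 (20.3% of genes were by edgeR), and 0 had an unadjusted p under 0.05.

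At day 2 the D/KO cells held more Pou5f1 (log2 difference 1.01 ± 0.254), Sox2 (1.08 ± 0.214) and Myc (0.91 ± 0.107), and Klf4 differed by 0.24 (95% interval -0.12 to 0.61). These 3 of 4 were called, against 21.9% of genes called higher. Without replicate 2 of WT day 2 the Pou5f1 difference was 0.62 (adjusted p = 0.0106) and that of Sox2 0.79 (adjusted p = 0.00131). At day 2 + VC all 4 were higher in D/KO cells (19.9% of genes were), by 1.01 ± 0.251, 1.06 ± 0.212, 0.78 ± 0.181 for Klf4 and 1.00 ± 0.107 for Myc. At day 4 Myc was the single factor called, at 0.47 ± 0.106 (adjusted p = 0.000437, 27.0% of genes called higher), or 0.30 (adjusted p = 0.0142) without replicate 3 of D/KO day 4, and likewise at day 4 + VC, at 0.40 ± 0.106 (adjusted p = 0.00196, 26.4% of genes).

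The change from day 0 itself differed between lines for Klf4, by 1.27 ± 0.256 at day 2 (adjusted p = 0.0012), 1.15 ± 0.258 at day 2 + VC (adjusted p = 0.00184) and 0.90 ± 0.255 at day 4 (adjusted p = 0.0134). It differed for Pou5f1 at day 2, by 2.25 ± 0.576 (adjusted p = 0.0119), and for Myc at day 2 + VC, by 1.04 ± 0.155 (adjusted p = 8.43e-06), and at day 4 + VC, by 0.44 ± 0.155 (adjusted p = 0.0301). The Pou5f1 value was 1.96 (adjusted p = 0.053) without replicate 3 of D/KO day 0 and 2.03 (adjusted p = 0.0625) without replicate 3 of WT day 0, the Klf4 value at day 4 was 0.72 (adjusted p = 0.055) without replicate 3 of D/KO day 0, and the Myc call at day 4 + VC was lost without 5 of 12 libraries in turn (0.34 to 0.52). For Sox2 it was called by edgeR or DESeq2 at neither day, with or without VC, and 1 of the 4 had an unadjusted p under 0.05. In the 4 comparisons, 2, 2, 1 and 1 of the factors were called at day 2, day 2 + VC, day 4 and day 4 + VC, each with the larger change in D/KO cells, where 3.43%, 6.85%, 7.27% and 13.9% of genes were. Markers of other cell types also differed between the lines. The 6 endothelial markers summed to 199 to 710 CPM in D/KO and 5.97 to 116 CPM in WT libraries, and the 7 leukocyte markers to 2.45 to 13.4 and 41.5 to 146 CPM. Their part in the genotype differences was not tested.

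The wider networks of the 4 factors were read through lists, described by counts beside the median of all genes. Of all genes at day 4, 18.3% were higher and 18.7% lower in D/KO, 27.9% and 26.2% in D/KO + VC, 11.7% and 12.8% in WT and 22.7% and 22.0% in WT + VC cells. Of 25 genes of the pluripotency network, 24 were matched and 6 passed the filter on low counts. Dppa4 and Nr0b1 had 0 counts in all 36 libraries, and the other genes under the filter had counts in some. Nanog, a core gene of the pluripotent state, had 0 to 9 counts in each of the 36 libraries, Esrrb 0 to 5 and Lin28a 0 to 2. Fgf4 and Gdf3 passed it only through induced groups, so calls among the 6 are not counted here.

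Fgf4, a growth factor gene controlled by an enhancer that OCT4 and SOX2 bind together, had 0 counts in every day 0 library and lay between 6.36 and 7.38 CPM at D/KO day 4 and between 9.62 and 12.3 CPM at D/KO day 4 + VC, at least 111-fold and at least 154-fold higher against a floor of 3 counts over the group. WT cells held 6 counts of it in all at day 4 and 6 at day 4 + VC, at least 1.99-fold and 1.75-fold higher. Gdf3, a TGFβ family ligand of pluripotent cells, had 17 counts at D/KO day 4 and 230 at D/KO day 4 + VC, against 0 at either day 0, at least 5-fold and 59-fold higher. WT cells held 1 count of Gdf3 at day 4 against 8 at day 0 (ratio 0.125, interval 0.00281 to 0.929, adjusted p = 0.161) and 27 at day 4 + VC against 3 (ratio 7.86, interval 2.42 to 40.5, adjusted p = 0.0175). Dnmt3l, a cofactor of DNA methylation, was lower in all 4 arms at day 4, by -1.62 in D/KO, -2.62 in D/KO + VC, -2.29 in WT and -1.18 in WT + VC. At D/KO day 4 + VC it went from between 4.14 and 5.33 CPM to between 0.334 and 1.53 CPM.

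Among 12 targets of KLF4, 7 were tested, and at D/KO day 4 + VC 3 were higher and 1 lower (median 0.39, all genes 0.01). At WT day 4 + VC 4 were higher and 2 lower (median 1.30, all genes 0.03), at D/KO day 4 2 and 1 (0.20) and at WT day 4 3 and 1 (0.45). Cdh1, the epithelial cadherin, had 0 counts at D/KO day 0 and 199 at day 4, at least 58.6-fold higher, and reached 41.9 to 48.4 CPM at D/KO day 4 + VC. It passed the filter only through induced D/KO groups, so the counts of this list that include it are no support. In WT cells it had 4 counts at day 4 and 9 at day 4 + VC against 0 at either day 0, at least 1.33-fold and 2.62-fold higher. Krt19, a simple epithelial keratin, was at 1.36 to 2.41 CPM at D/KO day 0 + VC and at 72.3 to 84.1 CPM at day 4 + VC, a log2 fold change of 5.47 ± 0.249 (adjusted p = 7.21e-20). At WT day 4 + VC Krt19 rose by 1.30 ± 0.263 (adjusted p = 0.000116). Without VC its log2 fold change was 0.43 ± 0.21 (adjusted p = 0.106) in D/KO and 0.45 ± 0.202 (adjusted p = 0.104) in WT cells. Ocln, which encodes the tight junction protein occludin, fell in 3 arms, by -2.80 (adjusted p = 0.0069) in D/KO, -2.11 (adjusted p = 0.0416) in WT and -1.61 (adjusted p = 0.037) in WT + VC, and was at 0.31 (adjusted p = 0.691) in D/KO + VC, on at most 33 counts a library. The 10 keratinocyte markers summed to 26.8 to 31.7 CPM at D/KO day 0 + VC and to 661 to 764 CPM at D/KO day 4 + VC, with 6 and 1 of them at 0, and their part in the epithelial genes was not tested.

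Of 26 textbook MYC targets, all tested, 18 were higher and 2 lower at D/KO day 4 + VC (median 0.71, all genes 0.01) and 13 higher and 6 lower at WT day 4 + VC (median 0.24, all genes 0.03). Without VC, 3 were higher and 10 lower in D/KO cells (median -0.17) and 2 higher and 6 lower in WT cells (median 0). Npm1, a nucleolar chaperone, changed by 1.67 ± 0.11 (adjusted p = 2.45e-15) in D/KO and 1.00 ± 0.108 (adjusted p = 1.58e-09) in WT cells with VC, and by 0.45 ± 0.108 (adjusted p = 0.000937) and -0.19 ± 0.108 (adjusted p = 0.203) without it. Odc1, the first enzyme of polyamine synthesis, fell in all 4 arms, by -1.58, -0.87, -1.09 and -1.66 in D/KO, D/KO + VC, WT and WT + VC. The counts of Myc itself rose in all of these arms. Of the 17 genes of the MYC network, 5 were higher and 6 lower at D/KO day 4 + VC, 5 and 3 at WT day 4 + VC, 4 and 5 at D/KO day 4 and 4 and 1 at WT day 4. Mycl, a paralogue of Myc, fell in 3 of the 4 arms. The change was -2.58 ± 0.648 in D/KO, -2.85 ± 1.01 in WT and -3.34 ± 1.32 in WT + VC. Their adjusted p-values were 0.00168, 0.0372 and 0.0378, and D/KO + VC was at -0.73 (adjusted p = 0.518).

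In the KLF family, 13 of 16 genes were tested, and 8 were higher and 4 lower at D/KO day 4 + VC (median 0.71, all genes 0.01), 6 and 5 at WT day 4 + VC (0.25), 6 and 4 at D/KO day 4 (0.41) and 3 and 2 at WT day 4 (0.12). Klf2 and Klf5, which can stand in for Klf4 in pluripotent cells, both fell in all 4 arms at day 4. Klf2 fell by -2.42 ± 0.191 in D/KO, -3.05 ± 0.207 in D/KO + VC, -2.30 ± 0.189 in WT and -3.25 ± 0.209 in WT + VC, and at D/KO day 4 + VC stood at 5.42 to 8.07 CPM against 47.3 to 57.2 CPM at day 0. Klf5 fell by -1.79, -2.93, -1.30 and -1.82. Klf8 was higher in D/KO cells, by 1.09 without VC and 4.29 with VC, where it was at 7.69 to 11.8 CPM against 0.301 to 0.771 CPM. In WT cells it was not called, at -0.5 without VC and 0.15 with VC. In the SOX family 13 of 19 genes were tested, with 5 higher and 3 lower at D/KO day 4 + VC (median 0.17), 4 higher and 3 lower at WT day 4 + VC (-0.34), 3 higher and 6 lower at D/KO day 4 (-0.65) and 1 higher and 2 lower at WT day 4 (-0.18). Sox13 was higher in all 4 arms, by 1.22 in D/KO, 3.17 in D/KO + VC, 0.48 in WT and 1.88 in WT + VC. In D/KO cells with VC it was at 51.1 to 72.4 CPM against 6.52 to 7.45 CPM. In the POU family 5 of 14 were tested, and calls are not counted since Pou2f3 passed the filter only through induced groups. At D/KO day 4 + VC Pou2f3 was at 1.53 to 2 CPM against 0 counts. It had 108 counts at D/KO day 4 against 11, 37 at WT day 4 against 8 and 68 at WT day 4 + VC against 1. The lncRNA gene Pvt1 lies 26416 bases beyond Myc, and its log2 fold change at day 4 was -0.63 (adjusted p = 0.000164) in D/KO, -0.37 (adjusted p = 0.019) in D/KO + VC, 0.02 (adjusted p = 0.939) in WT and 0.78 (adjusted p = 8.93e-06) in WT + VC.

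The inhibitor table shows the factors in fibroblasts without induction. Pou5f1 had 0 counts in 20 of the 21 libraries whose label names no 4FJ cassette and 1 count in the remaining one, and 0 counts allow a level of up to 0.178 CPM in the shallowest of them (3 counts). The day 0 libraries of the 2 cassette lines held 8 to 49 counts (0.471 to 2.88 CPM), and the WT 4F TGFB libraries 33, 21 and 24 counts (1.45, 0.968 and 1.1 CPM). Such limits cover counting error only.

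WT control cells held 0, 0 and 0.0823 CPM of Sox2 (2 counts in all) and D/KO control cells 0.809, 1.41 and 1.18 CPM (68 counts), a ratio of 42.9 with a counting interval of 11.4 to 362. WT skin control cells held 1.25, 0.764 and 0.415 CPM, a ratio of 32.5 to the tail tip cells of the same genotype (interval 8.56 to 275). In both the libraries were all above WT control. Both counts of WT control lay in replicate 3, and without it D/KO control was at least 19.6-fold and WT skin control at least 14.8-fold higher, against a floor of 3 counts over the group. Klf4 was at 138, 162 and 137 CPM in WT control and at 81.5, 91.8 and 97.8 CPM in D/KO control, a log2 difference of -0.69 ± 0.177 (adjusted p = 0.00422). Myc was at 29, 27.5 and 36.7 CPM in WT control and at 57.1, 52.8 and 57.5 CPM in D/KO control, a difference of 0.84 ± 0.12 (adjusted p = 1.02e-05).

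In D/KO cells Klf4 was thus called lower and Myc higher than in tail tip WT cells. For both factors this held here and at day 0 without VC of the reprogramming table, in different lines and libraries. Neither was called at day 0 + VC, where Klf4 differed by -0.37 (-0.54 to -0.09 with 1 library left out, the last without replicate 3 of D/KO day 0 + VC) and Myc by -0.04, and at day 2 + VC Klf4 was higher in D/KO cells. Sex and age differ between the genotypes in the reprogramming table, and age in the inhibitor table. Of the 4 factors 3 were called between D/KO and WT control, where 34.6% of genes were. Sox2 was called here (5.18) but not at day 0 without VC (0.48, adjusted p = 0.273). Against WT skin control no test was run. Klf4 there (31.9 to 60.2 CPM) lay under D/KO control (81.5 to 97.8 CPM), and Myc (40.8 to 54.1 CPM) overlapped it (52.8 to 57.5 CPM). In skin against tail tip cells 3 of 4 were called too (34.2% of genes), with Klf4 at 31.9, 60.2 and 57 CPM (-1.55 ± 0.181) and Myc at 54.1, 44.3 and 40.8 CPM (0.58 ± 0.12). Replicate 1 of WT skin control stood apart, varying 366 and 278 times more than counting noise from replicates 2 and 3, which varied 5.94 times more from each other. Without it Klf4 was at -1.32 and Myc at 0.45, both called, and the Myc call was lost with only the compared groups in the fit (0.59).

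WT 4F TGFB cells against WT control differed in all 4 factors, where 62.2% of genes did. Pou5f1 passed the filter on low counts only through the WT 4F TGFB libraries, so its call was fixed by the filter and is no support. Pou5f1 was at least 30.2-fold higher (78 counts against 0), Sox2 stood at 1.8, 1.8 and 2.25 CPM, a ratio of 74.8 (interval 20.3 to 625) or at least 34.1-fold higher without replicate 3 of WT control, Myc at 86.3, 79.9 and 86 CPM (1.44 ± 0.122) and Klf4 at 30.9, 28 and 30.1 CPM (-2.30 ± 0.186). The agent, dose and duration behind the label TGFB are not given in the sources used here, and the line and the age differ between these groups too, so these cannot be told apart. The 6 skeletal muscle markers summed to 1700 to 2050 CPM in WT 4F TGFB, with 3 of the 6 at 0, and to at most 63 CPM in any other group of the table. The endothelial markers summed to 1.47 to 1.97 CPM there and to 73.5 to 91.5 CPM in WT control. Their part in the result was not tested.

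**Figure D4:**
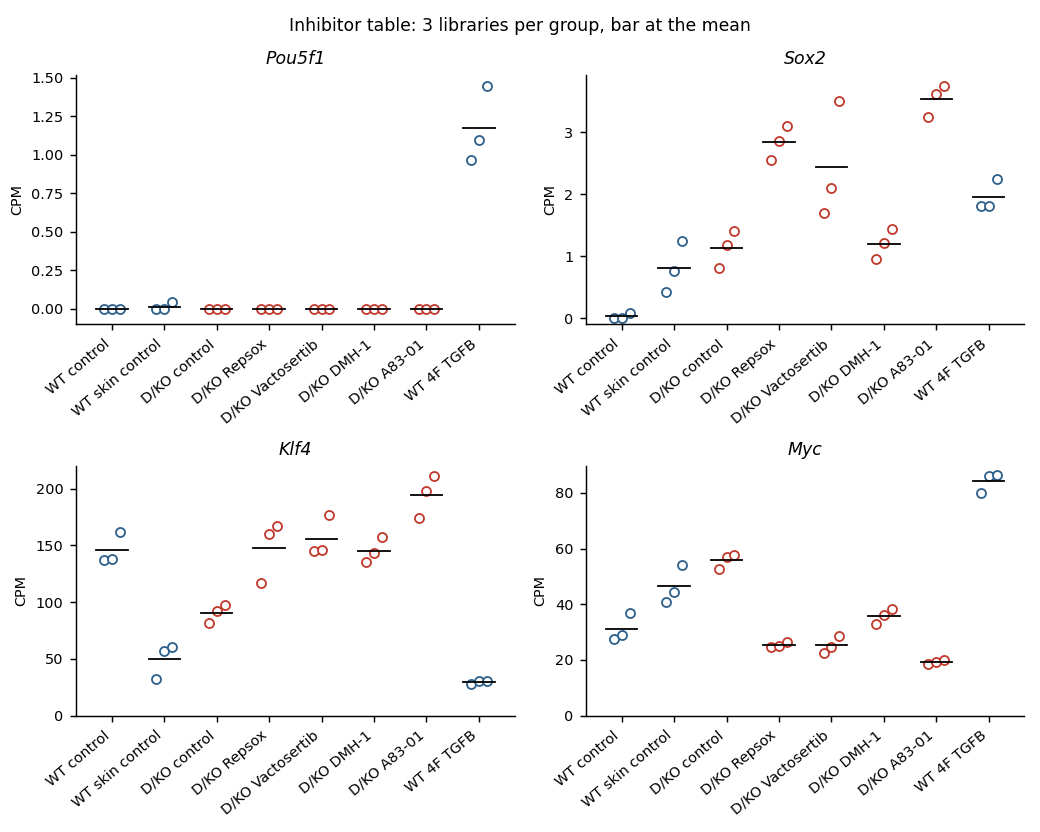
CPM of each factor in the 8 groups of the inhibitor table, with 1 point per library and a bar at the mean (n = 3). Pou5f1 is at 0 outside WT 4F TGFB except for 1 count in a skin library, Sox2 reaches at most 3.74 CPM, and Klf4 is above and Myc below the D/KO control with all 4 inhibitors.

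Receptor inhibitors moved Sox2, Klf4 and Myc in D/KO cells. Repsox, Vactosertib and A83-01 inhibit ALK5, the type I receptor of TGFβ, and DMH-1 inhibits ALK2, a type I receptor of BMP. The study's text also names ALK2 as a target of Vactosertib. Against D/KO control, 3 of 4 factors were called with Repsox (20.7% of genes), Vactosertib (18.1%) and A83-01 (27.5%), and 2 of 4 with DMH-1 (7.25%). Pou5f1 was listed at 0 in all 15 of these libraries, so it had no fold.

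Myc fell with each inhibitor. From 57.1, 52.8 and 57.5 CPM in control it stood at 25.1, 26.6 and 24.7 CPM with Repsox and at 22.5, 24.8 and 28.7 CPM with Vactosertib. With A83-01 it was at 18.5, 19.9 and 19.4 CPM and with DMH-1 at 32.9, 38.1 and 36.1 CPM. No treated library reached the control range. The log2 fold change was -1.13 ± 0.121 (adjusted p = 6.22e-07), -1.14 ± 0.122 (adjusted p = 7.85e-07), -1.53 ± 0.123 (adjusted p = 6.4e-09) and -0.64 ± 0.12 (adjusted p = 0.00154), in that order.

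Klf4 went up with each. From 81.5, 91.8 and 97.8 CPM in control it was at 160, 117 and 167 CPM with Repsox and at 145, 177 and 146 CPM with Vactosertib. With A83-01 it was at 174, 211 and 198 CPM and with DMH-1 at 135, 157 and 143 CPM, all above control. The log2 fold change was 0.71 ± 0.177 (adjusted p = 0.00602), 0.79 ± 0.177 (adjusted p = 0.00307), 1.11 ± 0.178 (adjusted p = 6.38e-05) and 0.68 ± 0.177 (adjusted p = 0.021). The DMH-1 call was lost without 4 of the 6 libraries in turn, with values of 0.61 to 0.74 and adjusted p-values up to 0.106. Replicate 2 of Repsox, at 117 CPM, stood apart, varying 152 and 163 times more than counting noise from replicates 1 and 3. Those varied 5.23 times more from each other. With 1 library left out, Klf4 with Repsox ranged from 0.62 to 0.85 and was called in all 6 fits.

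Sox2, whose promoter window is printed above, rose from 0.809, 1.41 and 1.18 CPM in control to 2.55, 3.1 and 2.86 CPM with Repsox, 2.09, 1.7 and 3.5 CPM with Vactosertib and 3.61, 3.74 and 3.25 CPM with A83-01. It was at 1.44, 1.21 and 0.946 CPM with DMH-1, overlapping control. The log2 fold change was 1.33 ± 0.352 (adjusted p = 0.00943), 1.09 ± 0.357 (adjusted p = 0.0372) and 1.64 ± 0.351 (adjusted p = 0.00114) with the first 3, and 0.10 with DMH-1 (95% interval -0.66 to 0.86, adjusted p = 0.941). The Vactosertib call was lost without 4 of the 6 libraries in turn (0.75 to 1.31, adjusted p up to 0.232) and the Repsox call without replicate 1 of D/KO control (1.12, adjusted p = 0.061). Each of these levels rests on 98 counts or fewer per library.

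**Figure D5:**
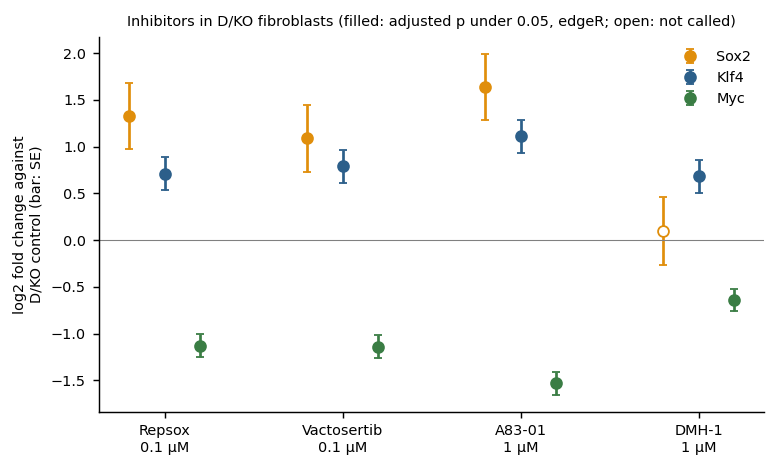
Log2 fold change of Sox2, Klf4 and Myc against D/KO control for the 4 inhibitors, with the dose under each name and bars of 1 SE, filled where the adjusted p is under 0.05. Myc lies between -1.53 and -0.64, Klf4 between 0.68 and 1.11, and Sox2 between 1.09 and 1.64 except for DMH-1 at 0.10.

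Inhibitors were compared only at the same dose, in 2 pairs with 3 factors each. Between Repsox and Vactosertib, both at 0.1 µM and both active against ALK5, the difference was 0.23 for Sox2 (95% interval -0.45 to 0.92), -0.08 for Klf4 (-0.44 to 0.29) and 0.01 for Myc (-0.24 to 0.26). None of the 3 was called by edgeR or DESeq2 or had an unadjusted p under 0.05 (0% of all genes were called), and the intervals allow differences of those sizes. Between A83-01 and DMH-1, both at 1 µM, Sox2 was higher with A83-01 by 1.54 ± 0.339 and Myc differed by -0.89 ± 0.121, with adjusted p-values over both pairs of 0.00434 and 2.67e-05. Klf4 differed by 0.43 (95% interval 0.06 to 0.79, adjusted p over both pairs = 0.187), with all A83-01 libraries higher. Of all genes, 20.5% were called between A83-01 and DMH-1. The 0.1 µM and 1 µM values stand side by side and were not compared.

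Across the 24 libraries of the inhibitor table, log2 CPM of Klf4 and Myc had a Pearson r of -0.89, and -0.77 over the 21 without WT 4F TGFB. Over the 12 libraries with an inhibitor r was -0.61. For deviations from the group means r was -0.45 over the 24 libraries, -0.47 over the 21 and 0.01 over the 12. In the reprogramming table the same pair gave 0.80 over 36 libraries. The libraries share lines and scaling.

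All MYC targets called with an inhibitor were lower, 10 of 26 with Repsox (median -0.30, all genes 0.02), 9 with Vactosertib (-0.31), 12 with A83-01 (-0.50) and 2 with DMH-1 (-0.12), where the median of all genes was 0 for the last 3. Of all genes, 9.73%, 8.70%, 13.9% and 2.90% were lower and 11.0%, 9.37%, 13.6% and 4.35% higher with the 4 inhibitors in that order. Mycn, a paralogue of Myc, rose with all 4, by 1.84 ± 0.268 with Repsox, 1.80 ± 0.27 with Vactosertib, 1.64 ± 0.269 with A83-01 and 1.12 ± 0.271 with DMH-1 (highest adjusted p = 0.0136). Klf5, which fell under doxycycline, rose by 1.05, 1.04 and 1.12 with the ALK5 inhibitors and was at 0.50 (adjusted p = 0.106) with DMH-1. Of 7 KLF4 targets tested 3, 3, 4 and 2 were higher with Repsox, Vactosertib, A83-01 and DMH-1, and 1 was lower with each, with medians of 0.72, 0.68, 0.43 and 0.32. Higher ones included Ccnd1, a D-type cyclin, by 1.02, 0.90 and 0.99 with the ALK5 inhibitors. Of 13 SOX family genes tested 3, 2, 3 and 1 were higher and 3, 2, 3 and 2 lower.

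Marker sums moved with the ALK5 inhibitors as well. The fibroblast markers, all 10 detected, summed to 78300 to 86500 CPM in D/KO control and to 33400 to 49100 CPM with the 3 ALK5 inhibitors, and to 67600 to 86400 CPM with DMH-1. The 6 melanocyte and Schwann cell markers summed to 6.61 to 9.53 CPM in control, to 13.7 to 19.2 CPM with Repsox or Vactosertib, 30.8 to 38.9 CPM with A83-01 and 10.9 to 14.1 CPM with DMH-1, with 1 or 2 of them at 0 in each group. Their part in the Sox2, Klf4 and Myc differences was not tested.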

How the data were processed

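Both deposited tables hold raw counts per gene. The authors made these counts with FastQC, Trim Galore, HISAT2 against GRCm39 and featureCounts (Subread). Versions, annotation release and strandedness are not given in the sources used here. Of 56980 identifiers, 56236 (98.7%) were found in GENCODE M39, which gave symbols, positions and coding lengths. Groups followed the sample labels. In R 4.3.3 with edgeR 4.0.16, counts were TMM-scaled, filtered (filterByExpr, minimum count 10, minimum total 15) and tested with the quasi-likelihood F-test (two-sided), all groups of a table sharing 1 fit, with Benjamini-Hochberg adjustment over all genes tested. CPM are TMM-scaled, and log2 CPM used a prior count of 2. Replicate numbers only name libraries. Replicate pairs varied 3.18 to 56.2 and 4.08 to 366 times more than counting noise, so no pair was the same library counted again. Separate libraries made from the same culture or RNA are not excluded by this. Alternatives were DESeq2 1.42.0, its size factors, library totals, other filters, fewer groups, another baseline and each library left out. Members and lists were chosen with earlier results of these data known. Genes named in a list were the 4 with the largest changes in it, or fixed by name.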

Additional observations from a re-analysis of the deposited data

Results flagged for a closer look

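For 13 results the change from day 0 differed between arms by a direct test of the difference (edgeR, adjusted p under 0.05, n = 3 libraries a group). Between cells with and without VC, the difference in the log2 change was 0.75 (adjusted p = 0.0441) for Klf4 and 1.22 (adjusted p = 5.6e-07) for Myc at D/KO day 2, and 1.04 (adjusted p = 0.00211) for Klf4 and 1.38 (adjusted p = 1.09e-08) for Myc at D/KO day 4. In WT cells it was 0.88 (adjusted p = 0.0348) for Klf4 at day 2, and 1.40 (adjusted p = 0.000162) for Klf4 and 0.56 (adjusted p = 0.0108) for Myc at day 4. All 7 are larger changes with VC. Myc at D/KO day 0 was at 65.2 CPM without and 36.3 CPM with VC. Its D/KO groups with VC differed from those without by -0.84 at day 0, 0.38 at day 2 and 0.53 at day 4. The Klf4 calls at day 2 were lost without 8 of 12 libraries in turn in D/KO and 10 of 12 in WT cells, and both D/KO calls for Klf4 with only the compared groups in the fit (0.73 and 1.00). Klf4 at WT day 0 was at 193 CPM without and 90.2 CPM with VC, and from day 0 without VC its change to WT day 2 + VC was -0.21.

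Between D/KO and WT cells, the difference was 2.25 (adjusted p = 0.0119) for Pou5f1 at day 2. For Klf4 it was 1.27 (adjusted p = 0.0012) at day 2, 1.15 (adjusted p = 0.00184) at day 2 + VC and 0.90 (adjusted p = 0.0134) at day 4. For Myc it was 1.04 (adjusted p = 8.43e-06) at day 2 + VC and 0.44 (adjusted p = 0.0301) at day 4 + VC. All 6 are larger changes in D/KO cells. Calls were lost without 2 of 12 libraries in turn for Pou5f1, 1 for Klf4 at day 4 and 5 for Myc at day 4 + VC. With only the compared groups in the fit, the Pou5f1 call and the Myc call at day 4 + VC were lost. Klf4 in D/KO and WT cells was at 94.5 and 193 CPM at day 0, 229 and 194 CPM at day 2 and 210 and 229 CPM at day 4. The lines also differ in sex, age, cassette and reporter, which cannot be told apart from genotype.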

How the results depend on the processing

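Of 157 member differences, 118 kept their direction and call under every alternative, and of 95 called, 76 kept the call. No paired analysis was possible because the labels number libraries serially and no 2 groups share a replicate number. Library totals in place of TMM moved the median of all genes by over 0.1 in 24 of 41 comparisons (-0.29 to 0.37). The cause of the changes below was not tested. Calls are given as VC effect, difference between lines, line difference of the change from day 0 or VC difference of that change.

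With DESeq2 size factors the Pou5f1 VC effect at WT day 4 lost its call (0.66), as with library totals (0.64). With library totals calls were gained for the Klf4 VC effect at D/KO day 0 (-0.61), Pou5f1 between lines at day 0 (-1.44), the Sox2 line difference of the change to day 2 + VC (1.16) and Klf4 between A83-01 and DMH-1 (0.51).

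With no filter on low counts, calls were gained for VC effects on Klf4 at D/KO day 0 (-0.44), on Pou5f1 (0.52), Sox2 (0.43) and Klf4 (0.31) at D/KO day 2, on Sox2 at WT day 0 (0.64) and on Pou5f1 (0.52) and Sox2 (0.46) at WT day 2. They were also gained for the Pou5f1 VC difference of the change in D/KO cells at days 2 (-1.18) and 4 (-0.81), between lines for Pou5f1 at day 0 (-1.24), Klf4 at day 0 + VC (-0.37) and Pou5f1 at day 4 + VC (0.31), and for the line difference of the change of Sox2 to day 2 + VC (1.01), Pou5f1 to day 4 (1.33) and Klf4 to day 4 + VC (0.55). That of Myc to day 4 + VC was lost (0.45).

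From day 0 without VC, Klf4 at WT day 2 + VC turned to -0.21. DESeq2's Wald test added the Myc VC effect at WT day 2 (0.28) and Pou5f1 between lines at day 0 (-1.23) and lost the VC effects on Pou5f1 (0.66) and Sox2 (0.63) at WT day 4. With 18 libraries (no skin or 4F TGFB), Klf4 between A83-01 and DMH-1 was called (0.42).

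With only the groups compared, calls were gained for Klf4 at WT day 4 (0.26), VC effects on Pou5f1 (0.52), Sox2 (0.44) and Klf4 (0.32) at D/KO day 2 and on Klf4 at WT day 4 (0.28), the Pou5f1 VC difference of the change to D/KO day 2 (-1.22), Pou5f1 between lines at day 0 (-1.25), the line difference of the change of Sox2 to day 2 + VC (0.99) and Pou5f1 to day 4 (1.32), and Klf4 between A83-01 and DMH-1 (0.42). Calls were lost for Pou5f1 at WT day 4 against day 2 (0.84), the Klf4 VC difference of the change in D/KO cells at days 2 (0.73) and 4 (1.00), the line difference of the change of Pou5f1 to day 2 (2.26) and Myc to day 4 + VC (0.44), and Myc in skin (0.59).

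Leaving out each library in turn changed some calls. VC effects then ranged from 1.42 to 1.94 (Pou5f1) and -0.62 to -0.15 (Klf4) at D/KO day 0, 0.45 to 0.88 (Sox2) and 0.45 to 0.79 (Klf4) at D/KO day 4, 0.12 to 0.86 (Pou5f1) and 0.15 to 0.65 (Sox2) at WT day 2, and 0.58 to 0.73 (Pou5f1) and 0.55 to 0.71 (Sox2) at WT day 4. WT day 4 against day 2 ranged from 0.43 to 1.17 (Pou5f1), 0.52 to 1.01 (Sox2) and 0.31 to 0.37 (Myc). The Klf4 VC difference of the change to day 2 ranged from 0.47 to 0.94 in D/KO and 0.81 to 1.01 in WT cells. Pou5f1 between lines at day 0 ranged from -1.47 to -0.95. Line differences of the change ranged from 1.85 to 2.59 (Pou5f1, day 2), 0.79 to 1.46 (Sox2, day 2 + VC), 0.72 to 1.09 (Klf4, day 4), 0.26 to 0.72 (Klf4, day 4 + VC), -0.56 to -0.27 (Myc, day 4) and 0.34 to 0.52 (Myc, day 4 + VC). Against D/KO control, Sox2 ranged from 1.12 to 1.52 with Repsox and 0.75 to 1.31 with Vactosertib, and Klf4 from 0.61 to 0.74 with DMH-1.

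Depth limits Pou5f1 and Sox2 before induction, where single libraries held 0 to 98 counts.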
